A study of Rattus norvegicus with 9 samples.

Results

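The genes described here encode ubiquitin ligases, ubiquitin-conjugating enzymes and deubiquitinases that were measured by RNAseq in rat bone marrow-derived dendritic cells (BMDCs). They were selected on a measured value: their symbols were taken from the study's list of genes called different between BMDCs stimulated with total lipids (TLs) of *Lactobacillus johnsonii* N6.2 and BMDCs given the vehicle control. Every symbol on that list beginning with Trim, Rnf, Usp, Peli or Herc and a digit, or with Ube2, Ube3, Otud, Fbxl, Fbxo, Fbxw or March, was taken with the exception of a single TRIM gene. The rule found 27 genes among the 1981 genes with a symbol and the 32545 genes counted. Because of this choice, the values of TLs against the vehicle control are given below as a description without p-values. The list was used in a shortened copy. A member that the study did not call, or that the copy left out, has no symbol here. The 27 genes are therefore not the whole of these families.

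Ubiquitin is a small protein that is attached to other proteins by a relay of an activating enzyme (E1), a conjugating enzyme (E2) and a ligase (E3). RING ligases hold the charged E2 next to the target, HECT ligases and RING-between-RING ligases first take the ubiquitin onto themselves, and F-box proteins bring targets to SCF complexes built on a cullin. Deubiquitinases take ubiquitin off again. In dendritic cells, chains built on signaling proteins below Toll-like receptors and the IL-1 receptor are known to carry the signal to NF-κB, and degradation of the inhibitor IκBα by an SCF ligase releases NF-κB into the nucleus.

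The BMDCs came from wild-type Sprague-Dawley rats 8 to 12 weeks old and were grown from bone marrow with GM-CSF and human FLT3L. On day 7 they were stimulated for 6 h with TLs at 600 ng/mL in PBS, with the synthetic glycolipid α-GalCer at 100 ng/mL in DMSO and PBS, or with DMSO and PBS as the vehicle control. Each of the 3 groups held 3 libraries. TLs came without DMSO and both other groups with it, so an effect of TLs and one of the missing DMSO cannot be told apart. Total counts lay between 15190820 and 20591105 per library, and 26 of the 27 genes passed the filter on low counts that left 12602 genes to be tested. Levels are given as CPM, the usual depth-scaled counts, relative to the TMM-normalized library size. Cultures of this kind are mixtures. Of 12 dendritic cell markers looked for, 6 had a symbol and all were expressed, while Flt3, Zbtb46, Cd74, Irf4, Clec9a and Xcr1 were not analysed here. Only genes that the study called between TLs and the vehicle control, and that the shortened list named, had a symbol. A difference between these groups in the markers shown thus follows from that choice, and markers without a change could not be seen. Over all genes tested, all TL libraries lay above all vehicle libraries for 22.2% and below them for 23.9%. The 6 summed to 909.6 to 962 CPM in vehicle libraries, 849.7 to 914 CPM in α-GalCer libraries and 1085 to 1131 CPM in TL libraries, but they moved in both directions. Itgax (431 to 482 CPM in vehicle, 642 to 683 CPM in TL libraries) and Ccr7 (87.4 to 99.7 against 174 to 178 CPM) were higher in every TL library. Clec10a (50.2 to 57.9 against 13.3 to 15.2 CPM), Itgae (17.0 to 20.7 against 9.25 to 11.1 CPM), Irf8 (214 to 229 against 179 to 183 CPM) and Ciita (70.8 to 86.2 against 58.7 to 63.7 CPM) were lower in every TL library than in any vehicle library. Of 6 monocyte and macrophage markers, 4 had a symbol. They summed to 525 to 572 CPM in vehicle, 483 to 557 CPM in α-GalCer and 2502 to 2550 CPM in TL libraries. Cd14 held most of each sum, with 425 to 493 CPM in vehicle, 396 to 465 CPM in α-GalCer and 2388 to 2436 CPM in TL libraries. Adgre1 was also higher with TLs (18.2 to 21.1 against 61.8 to 71.9 CPM), whereas Mertk (41.2 to 52.6 against 25.2 to 31.4 CPM) and Siglec1 (19.9 to 33.7 against 13.0 to 16.6 CPM) were lower. The neutrophil marker Mpo, the only one of 4 with a symbol, lay at 479 to 536 CPM in vehicle, 468 to 497 CPM in α-GalCer and 427 to 435 CPM in TL libraries, so that every TL library was below the other 6. Markers of T cells, B cells, mast cells, erythroid cells and stroma had no symbol here. The part of these shifts in the results below was not tested, and in such bulk libraries fewer cells of a type and less RNA per cell cannot be told apart.

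With TLs, 14 of the 26 tested genes were called higher and 8 lower than with the vehicle control, and 4 were not called. Fbxo2, among the 14, would not have passed the filter on low counts without its TL libraries. A call was an adjusted p under 0.01 with an absolute log2 fold change over 0.3 in edgeR. Over all genes tested, 9.77% were called higher and 9.67% lower, 19.4% in all, but nothing can be read from the members' larger share because the same contrast chose them. With upper quartile normalization the calls over all genes split into 1002 higher and 1614 lower, in place of 1231 and 1219, and those of the members into 13 and 8. The median log2 fold change was 0.40 over the members, against −0.20 over all 1839 tested genes with a symbol, which were chosen in the same way, and −0.02 over all genes tested. The shares with a positive value were 61.5%, 43.7% and 47.4% in the same order. All 3 TL libraries lay above all 3 vehicle libraries for 16 members and below them for 8, where the shares over all genes tested were 22.2% and 23.9%. In sum the 27 genes held 1568 to 1678 CPM in the vehicle libraries, 1605 to 1654 CPM in the α-GalCer libraries and 2339 to 2366 CPM in the TL libraries. Trim35 alone made up 292 to 309.8 CPM of the vehicle sums and 648 to 692 CPM of the TL sums, and without it the sums were 1276 to 1369 CPM in vehicle libraries and 1668 to 1701 CPM in TL libraries.

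**Figure D1:**
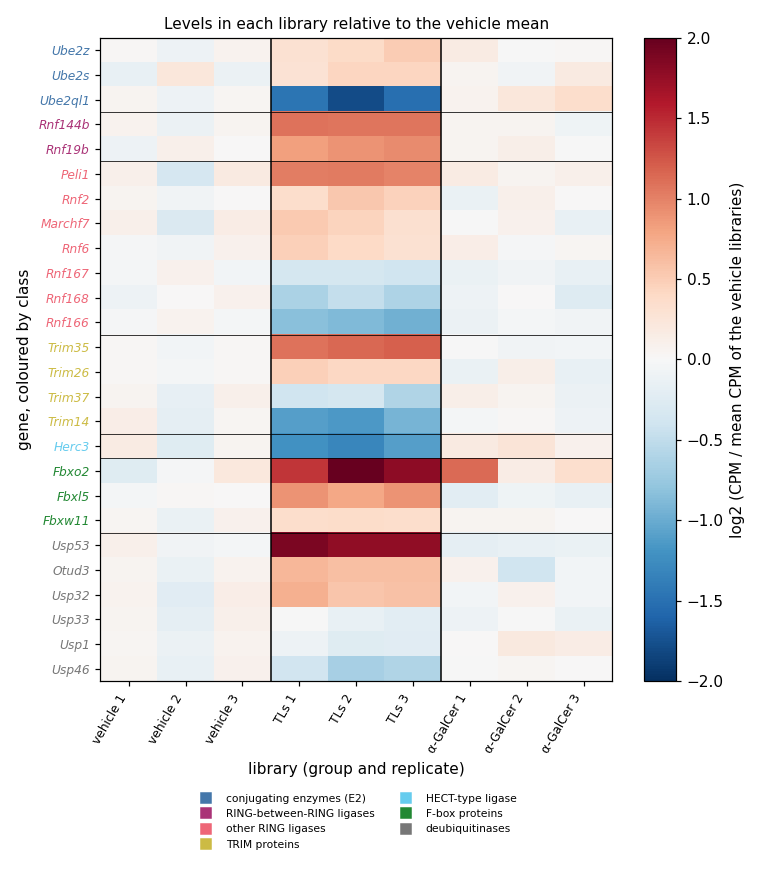
Heat map of the 26 tested genes (rows, grouped by class) in the 9 libraries (columns), coloured by the log2 ratio of CPM to the mean of the 3 vehicle libraries. The TL columns stand out in both directions, from Usp53 and Fbxo2 at the red end to Ube2ql1 and Herc3 at the blue end, and the colour scale ends at ±2. The α-GalCer columns stay close to the vehicle columns for most genes.

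Among the conjugating enzymes, Ube2ql1 showed the largest fall of the tested members. Ube2ql1 (ENSRNOG00000034075) encodes a relative of the E2 enzymes of the UBE2Q type. Its levels were 13.3, 11.9 and 13.0 CPM in the vehicle libraries, 4.60, 3.70 and 4.49 CPM in the TL libraries and 13.3, 14.9 and 16.2 CPM in the α-GalCer libraries. The TL libraries thus formed a separate low group, and the α-GalCer libraries lay slightly above the vehicle libraries. The log2 fold change with TLs was −1.57 (standard error 0.14) against the vehicle control and −1.79 (standard error 0.14) against α-GalCer. Ube2z (ENSRNOG00000006868), an E2 that is charged by the E1 enzyme UBA6, moved the other way, from 63.2 ± 3.70 CPM (SD, n = 3 libraries) with the vehicle control to 83.5 ± 5.57 CPM in TL libraries. Its log2 fold change was 0.40 (standard error 0.076). Ube2s (ENSRNOG00000016930), which lengthens chains together with the anaphase-promoting complex, was at 87.3, 114 and 89.6 CPM in vehicle libraries and at 119, 131 and 130.4 CPM in TL libraries. The groups did not overlap, but the second vehicle library lay close to the TL libraries, and Ube2s was not called (0.38, standard error 0.10). Without vehicle replicate 2 the value was 0.52 and it was called.

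Both RING-between-RING ligases were higher with TLs, and their levels in the other groups were alike. Rnf144b (ENSRNOG00000016123), a ligase of this type that is induced by p53 in human cells, was at 85.2, 74.9 and 84.6 CPM in vehicle libraries, 173, 171 and 171 CPM in TL libraries and 84.5, 84.5 and 77.2 CPM in α-GalCer libraries. The TL libraries differed from each other by less than the vehicle libraries did. Its log2 fold change against the vehicle control was 1.07 (standard error 0.065). Rnf19b (ENSRNOG00000000123), also known as NKLAM and described in natural killer cells and macrophages of mice, was at 74.9, 86.3 and 80.9 CPM in vehicle libraries, 143, 151 and 155 CPM in TL libraries and 83.8, 87.5 and 80.5 CPM in α-GalCer libraries. Again no TL library came near those of the other groups, and the log2 fold change was 0.89 (standard error 0.067).

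Of the 7 other RING ligases, 3 were called higher, 3 lower and 1 was not called. Peli1 (ENSRNOG00000006329) showed the largest rise of them. It encodes Pellino-1, a ligase that acts on signaling proteins below Toll-like receptors and the IL-1 receptor. It was at 26.9, 19.8 and 28.1 CPM in vehicle libraries, at 50.4, 51.1 and 49.8 CPM in TL libraries and at 27.9, 25.7 and 26.6 CPM in α-GalCer libraries. The second vehicle library was the lowest of all 9, and the TL libraries agreed closely. The log2 fold change was 1.02 (standard error 0.11), and 0.87 without vehicle replicate 2. Rnf2 (ENSRNOG00000002454), the RING1B subunit of Polycomb repressive complexes that marks histone H2A, rose from 28.8 ± 1.18 to 39.2 ± 2.53 CPM (SD, n = 3), and Rnf6 (ENSRNOG00000000968), known as a ligase of the androgen receptor in human cells, from 51.5 ± 2.85 to 67.6 ± 4.14 CPM. Marchf7 (ENSRNOG00000006241), a membrane-associated RING ligase also called axotrophin, was at 51.0, 38.9 and 53.0 CPM in vehicle libraries and at 68.7, 65.1 and 59.8 CPM in TL libraries. It was not called (0.44, standard error 0.12), and its vehicle libraries spread over a wider range than its TL libraries.

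Rnf166 (ENSRNOG00000013777), a ligase that tags bacteria for autophagy in human cells, had the largest fall among the RING ligases. It was at 80.2, 85.8 and 79.7 CPM in vehicle libraries, 46.0, 44.2 and 42.0 CPM in TL libraries and 75.5, 80.1 and 77.7 CPM in α-GalCer libraries. All TL libraries lay far below the other 6, and the log2 fold change was −0.89 (standard error 0.064). Rnf168 (ENSRNOG00000043345), which marks histone H2A at broken DNA, changed by −0.58 log2 units (standard error 0.094) and lay at 27.2 ± 1.84 CPM in vehicle-treated and 18.2 ± 1.06 CPM in TL-treated BMDCs. Rnf167 (ENSRNOG00000003879), a ligase of endosomes and lysosomes, averaged 54.2 ± 3.11 CPM in vehicle-treated and 42.0 ± 0.946 CPM in TL-treated BMDCs. Its log2 fold change of −0.37 (standard error 0.068) was near the threshold.

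The 4 TRIM genes split evenly in direction. Trim35 (ENSRNOG00000009449), linked in mice to apoptosis of macrophages, was at 309.8, 292 and 309 CPM in vehicle libraries, 648, 671 and 692 CPM in TL libraries and 301, 291 and 293 CPM in α-GalCer libraries. The TL libraries were separated from the other 6 by a gap wider than the spread within any group, and the log2 fold change was 1.14 (standard error 0.051). Trim26 (ENSRNOG00000032930), a ligase described in the antiviral response, rose from 65.1 ± 1.75 to 88.2 ± 1.93 CPM (SD, n = 3; log2 fold change 0.44, standard error 0.075). Trim14 (ENSRNOG00000008922), which has no RING domain and serves as an adaptor of the antiviral protein MAVS in human cells, was at 13.99, 11.4 and 13.1 CPM in vehicle libraries, 5.95, 5.76 and 6.73 CPM in TL libraries and 12.5, 13.1 and 11.99 CPM in α-GalCer libraries. No TL library reached the lowest of the other libraries, and the log2 fold change was −1.06 (standard error 0.13). Trim37 (ENSRNOG00000006248), a ligase that limits the formation of centrioles, had one of −0.44 (standard error 0.10). Its call was lost in 7 of 14 alternatives: on leaving out vehicle replicate 1 or 3, TL replicate 1, 2 or 3 or α-GalCer replicate 2, and with the replicate block.

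The single HECT-type ligase gene fell. Herc3 (ENSRNOG00000007304), which joins a HECT domain to repeats of the RCC1 type, was at 31.6, 23.7 and 29.0 CPM in vehicle libraries, 12.2, 11.4 and 13.1 CPM in TL libraries and 31.7, 33.7 and 29.8 CPM in α-GalCer libraries. The second vehicle library was the lowest outside the TL group and was still far above every TL library. The log2 fold change was −1.20 (standard error 0.11), and −1.31 without vehicle replicate 2.

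All 3 F-box genes that could be tested were called higher with TLs, but Fbxo2 would not have been tested without its TL libraries. Fbxl5 (ENSRNOG00000005261) encodes the iron-sensing subunit of an SCF ligase that degrades the iron regulatory proteins. It was at 100.1, 105 and 103 CPM in vehicle libraries, 191, 176 and 192 CPM in TL libraries and 88.3, 96.8 and 92.9 CPM in α-GalCer libraries, so that its α-GalCer libraries lay just below and its TL libraries far above the vehicle libraries. The log2 fold change with TLs was 0.86 (standard error 0.059). Fbxw11 (ENSRNOG00000004395), also called β-TrCP2, is a subunit of the SCF ligase that degrades IκBα and β-catenin. It was at 120.2, 107 and 125 CPM in vehicle libraries and at 150.1, 151 and 149 CPM in TL libraries, and its log2 fold change of 0.36 (standard error 0.063) was the smallest of the members called. Without vehicle replicate 2, the lowest of the 9 libraries, it was 0.29 and no longer called.

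The other F-box genes were expressed near the limit of detection, where 3 counts in a library correspond to 0.155 to 0.210 CPM. Fbxo2 (ENSRNOG00000009409), which recognizes sugar chains on misfolded glycoproteins, had 5, 6 and 7 counts in the vehicle libraries, 18, 20 and 17 counts in the TL libraries and 13, 7 and 8 counts in the α-GalCer libraries. The TL libraries were the highest, but the first α-GalCer library came near them. Fbxo2 passed the filter on low counts through the TL libraries, where it was high, so nothing is read from its call. The log2 fold change against the vehicle control was 1.72 with a standard error of 0.38, the widest of the tested members, and the call was lost in 6 of 14 alternatives: on leaving out vehicle replicate 1, 2 or 3 or TL replicate 2 or 3, and with the replicate block. Fbxo36 (ENSRNOG00000017053), an F-box gene without an established target, did not pass the filter. It had 2 counts over the 3 vehicle libraries, 10 over the TL libraries and 7 over the α-GalCer libraries. The ratio of TLs to the vehicle control was 5.42, with an exact 95% binomial interval from 1.15 to 50.8 that covers counting error only.

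Of the 6 deubiquitinase genes, 3 were called higher, 1 lower and 2 were not called. Usp53 (ENSRNOG00000014660) had the largest log2 fold change of the 26 tested members, except on leaving out vehicle replicate 3 or TL replicate 1, where that of Fbxo2 was larger. It belongs to the ubiquitin-specific protease family and is known for a role at cell junctions. Its levels were 11.2, 9.88 and 10.2 CPM in vehicle libraries, 38.6, 35.6 and 35.7 CPM in TL libraries and 9.24, 9.36 and 9.48 CPM in α-GalCer libraries. Every TL library was far above the other 6, and every α-GalCer library was slightly below every vehicle library. Usp53 was 3.52-fold higher with TLs than with the vehicle control (log2 fold change 1.81, standard error 0.086). Usp32 (ENSRNOG00000027711), which acts on the late endosomal GTPase RAB7 in human cells, rose from 62.5 ± 8.19 to 95.9 ± 5.56 CPM (SD, n = 3). Otud3 (ENSRNOG00000017037), a deubiquitinase of the OTU type, was at 16.5, 14.4 and 16.7 CPM in vehicle libraries and at 25.3, 24.2 and 24.2 CPM in TL libraries.

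Usp1 and Usp46 encode proteases that are both switched on by the cofactor UAF1. Usp46 (ENSRNOG00000002106) was at 40.2, 35.03 and 41.2 CPM in vehicle libraries, 29.6, 24.4 and 25.7 CPM in TL libraries and 38.8, 40.0 and 39.0 CPM in α-GalCer libraries. The TL libraries were the lowest, and the log2 fold change was −0.54 (standard error 0.091). Usp1 (ENSRNOG00000007890), which removes ubiquitin from the DNA repair proteins FANCD2 and PCNA, was at 125, 112 and 128 CPM in vehicle libraries, 113, 103 and 103 CPM in TL libraries and 122, 139 and 135 CPM in α-GalCer libraries. The vehicle and TL libraries overlapped, and Usp1 was not called against the vehicle control (−0.19, standard error 0.072). Usp33 (ENSRNOG00000011294), known for its binding to the VHL ligase, had the smallest change of the tested members, with 58.8 ± 5.78 CPM in vehicle-treated and 54.1 ± 3.84 CPM in TL-treated BMDCs (−0.12, standard error 0.087). Fbxw11 and Rnf167 were thus the members just inside the fold threshold, and Usp1 and Usp33 those just outside it, while Ube2s and Marchf7 passed the fold threshold but missed that of the adjusted p.

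**Figure D2:**
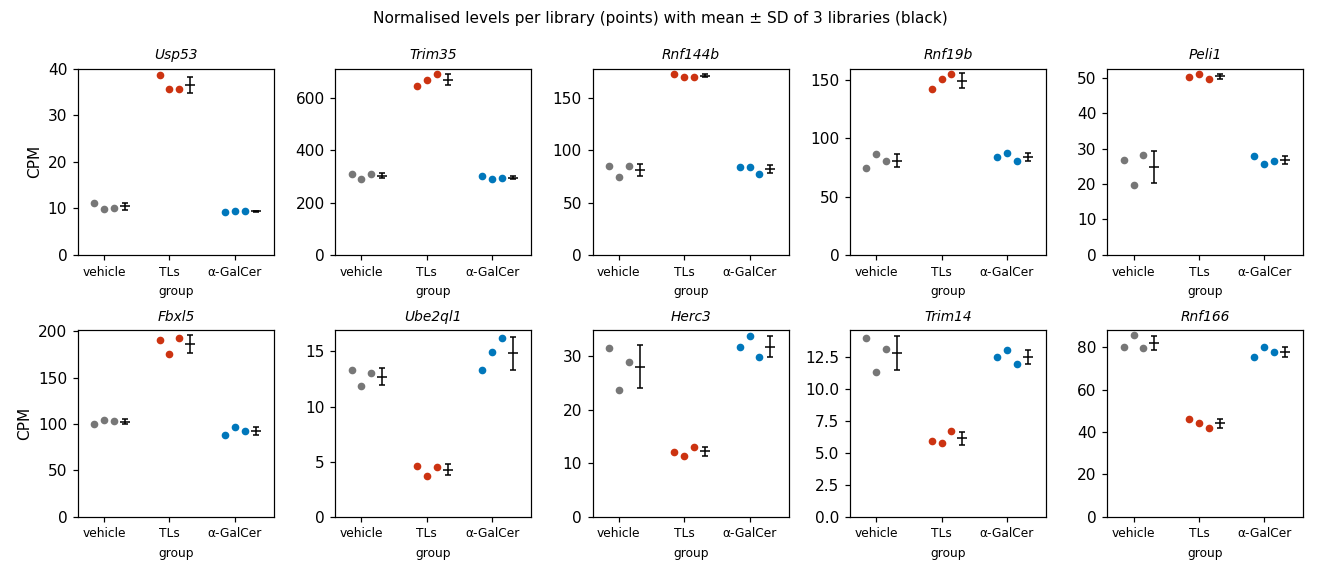
CPM in each of the 9 libraries (points, y axes from 0) with the mean ± SD of 3 libraries (black) for 6 genes that were higher and 4 that were lower with TLs. In none of the 10 panels do the TL libraries overlap those of the vehicle control or α-GalCer. The vehicle and α-GalCer libraries lie closer together, although they do not overlap for Usp53, Fbxl5 and Ube2ql1.

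Against α-GalCer, 13 of the 26 genes were called higher with TLs and 8 lower, while 5 missed the test. Over all genes tested, 9.85% were called higher and 10.5% lower, 20.3% in all. This comparison uses the same TL libraries as the one behind the choice of the genes and is therefore no independent support for it. With upper quartile normalization the split over all genes was 1000 higher and 1742 lower, in place of 1241 and 1321, and that of the members 10 and 9. In edgeR's quasi-likelihood test with Benjamini-Hochberg adjustment, Usp53 rose by 1.97 log2 units (standard error 0.087, adjusted p = 3.58e-08) and Trim35 by 1.19 (standard error 0.051, adjusted p = 3.02e-08). Rnf144b rose by 1.06 log2 units (standard error 0.065, adjusted p = 4.66e-07 in edgeR) and Fbxl5 by 1.01 (standard error 0.059, adjusted p = 3.29e-07). For Peli1 the rise was 0.91 (adjusted p = 0.000108 in edgeR), and for Rnf19b it was 0.83 (adjusted p = 3.91e-06 in edgeR). The steepest fall was again that of Ube2ql1 (adjusted p = 2.72e-06 in edgeR), followed by Herc3 at −1.38 (standard error 0.11, adjusted p = 4.76e-06), Trim14 at −1.03 (standard error 0.13, adjusted p = 0.000112) and Rnf166 at −0.82 (standard error 0.064, adjusted p = 3.26e-06).

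Smaller changes filled the rest of the range. Otud3 (0.73), Usp32 (0.62), Trim26 (0.49), Rnf2 (0.45), Rnf6 (0.34), Ube2z (0.34) and Fbxw11 (0.32) rose, and Usp46 (−0.56), Trim37 (−0.47), Rnf168 (−0.46) and Usp1 (−0.31) fell, with log2 fold changes against α-GalCer in parentheses. The genes not called were Fbxo2 (1.14, adjusted p = 0.0293), Marchf7 (0.46, adjusted p = 0.0102), Ube2s (0.32, adjusted p = 0.0335), Rnf167 (−0.25, adjusted p = 0.0139) and Usp33 (−0.04, adjusted p = 0.747), all in edgeR. Fbxo2 and Rnf167 were thus called against the vehicle control and not against α-GalCer, and Usp1 the other way round. The differences between α-GalCer and the vehicle control behind these calls were 0.59 for Fbxo2, −0.11 for Rnf167 and 0.12 for Usp1 on the log2 scale, and none of them passed the test.

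**Figure D3:**
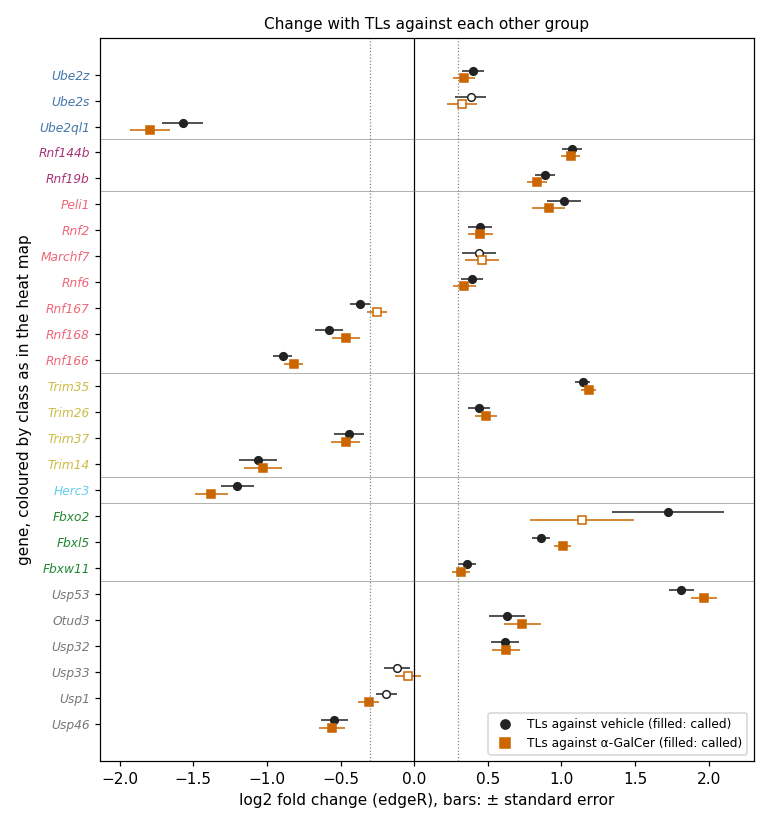
log2 fold changes of TLs against the vehicle control (circles) and against α-GalCer (squares) for the 26 tested genes, with bars of ± standard error, filled symbols for genes called and dotted lines at the threshold of ±0.3. Both comparisons share the TL libraries, and the paired symbols run from −1.57 and −1.79 for Ube2ql1 to 1.81 and 1.97 for Usp53.

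Between α-GalCer and the vehicle control, edgeR called 0 of the 26 members and 0 of all genes tested (0%), and DESeq2 called 0 of the members and 1 gene higher and 1 lower over all genes. The rule did not use this contrast, although it shares the vehicle libraries. An unadjusted p under 0.05 was found for 1 member (3.85%) and for 370 genes (2.94%) of all tested. The member was Fbxl5, with 103 ± 2.34 CPM in vehicle libraries and 92.7 ± 4.27 CPM in α-GalCer libraries (SD, n = 3 libraries), or −0.15 log2 units (standard error 0.059, adjusted p = 0.9999 in edgeR). All 3 of its α-GalCer libraries lay below all 3 vehicle libraries. The median absolute log2 fold change was 0.061 over the members and 0.069 over all genes tested, and the largest was that of Fbxo2. Groups did not overlap for 4 members: Ube2ql1 was higher, and Fbxl5, Usp53 and Rnf167 were lower, in every α-GalCer library. Non-overlap in either direction was found for 3.35% (above) and 3.40% (below) of all genes tested. A value that misses the test does not show that α-GalCer leaves these genes unchanged.

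The start sites of the members were searched for 4 short motifs, those of factors known from the innate immune response. RefSeq gave a window of 300 bases, from 250 before the start site to 50 from it on, for 24 of the 27 genes on the assembly GRCr8, which is not the assembly of the counts, and the genes were matched by symbol. Searched on both strands were the NF-κB consensus, by its name, the core of the interferon-stimulated response element (ISRE) as GAAANNGAA, the AP-1 motif as TGANTCA and the cyclic AMP response element (CRE) as TGACGTCA. The NF-κB consensus was in 0 of the 24 windows, against 3.94% of all 33469 windows, the ISRE core in 1 (4.17%, against 9.85%), the AP-1 motif in 1 (4.17%, against 7.39%) and the CRE in 2 (8.33%, against 1.82%). The members' windows were rich in G and C, with a median of 69.2% against 51.7% over all windows, so that shares in the whole set are no matched background. A match is a description of letters and no site of binding, and a window without a match says nothing of a factor.

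The windows with a match are shown with the matched bases in capitals, followed by that of Usp53, which held none and whose levels in TL libraries were far from those of the other groups. In the window of Trim26, 2 matches to the ISRE core overlap between bases −197 and −183 from the start site, and a CRE lies at −125 to −118. The CRE of Rnf166 lies at −92 to −85 and the AP-1 motif of Rnf167 at −54 to −48. Trim26 was among the genes that rose and Rnf166 among those that fell, so the CRE was found in genes of both directions. All are written 5′ to 3′ on the strand of the gene.
Trim26, chr20:1736262-1736561, minus strand, GRCr8: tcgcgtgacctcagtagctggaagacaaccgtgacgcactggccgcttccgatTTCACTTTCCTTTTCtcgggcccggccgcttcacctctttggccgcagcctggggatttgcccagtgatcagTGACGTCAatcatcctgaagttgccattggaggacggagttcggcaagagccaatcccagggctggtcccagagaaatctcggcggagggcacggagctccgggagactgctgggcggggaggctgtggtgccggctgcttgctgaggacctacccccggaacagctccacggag
Rnf166, chr19:67447765-67448064, minus strand, GRCr8: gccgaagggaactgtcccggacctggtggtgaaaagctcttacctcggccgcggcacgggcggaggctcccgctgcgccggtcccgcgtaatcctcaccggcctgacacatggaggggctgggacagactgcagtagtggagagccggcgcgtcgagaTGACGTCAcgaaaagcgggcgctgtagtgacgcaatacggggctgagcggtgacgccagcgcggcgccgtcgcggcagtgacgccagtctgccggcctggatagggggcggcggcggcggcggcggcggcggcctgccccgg
Rnf167, chr10:55859004-55859303, plus strand, GRCr8: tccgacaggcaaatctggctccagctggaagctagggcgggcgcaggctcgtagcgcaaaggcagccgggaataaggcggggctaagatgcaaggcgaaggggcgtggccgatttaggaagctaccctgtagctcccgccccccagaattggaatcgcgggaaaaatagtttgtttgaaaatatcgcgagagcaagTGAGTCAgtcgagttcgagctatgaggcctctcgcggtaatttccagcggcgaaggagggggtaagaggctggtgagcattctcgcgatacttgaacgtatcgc
Usp53, chr2:213805259-213805558, minus strand, GRCr8: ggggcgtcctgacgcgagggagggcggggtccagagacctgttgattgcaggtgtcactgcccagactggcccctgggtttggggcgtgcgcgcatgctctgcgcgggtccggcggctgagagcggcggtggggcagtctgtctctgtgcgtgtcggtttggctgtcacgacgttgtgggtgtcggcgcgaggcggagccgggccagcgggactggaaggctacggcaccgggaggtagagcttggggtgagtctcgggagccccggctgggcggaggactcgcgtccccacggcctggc

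Other genes of the ubiquitin pathway were looked up from a list of 85 symbols, of which 32 were found and tested. Again these were only genes that the study had called and its shortened list named. Of these, 16 were called higher and 9 lower with TLs than with the vehicle control, and 7 were not called, with a median log2 fold change of 0.43. Nothing is read from these counts, since the same contrast chose the genes: the shares over all genes tested were 9.77% and 9.67%, and 716 and 693 of the 1839 tested genes with a symbol were called higher and lower. Against α-GalCer, 17 were called higher, 10 lower and 5 not at all, where the shares over all genes tested were 9.85% and 10.5%. That comparison uses the same TL libraries as the choice of these genes, so nothing is read from its counts either. The 10 lower genes include Klhl3, an adaptor of cullin-3 ligases, which had no count in any TL library. Klhl3 was also near the limit of detection with the vehicle control (0.50 ± 0.29 CPM, SD, n = 3) and with α-GalCer (0.54 ± 0.30 CPM). It was not called against the vehicle control. The highest values among the genes called were those of Birc3, the inhibitor of apoptosis protein cIAP2 and a ligase of the TNF receptor complex (59.2 ± 2.48 to 131.5 ± 6.97 CPM, SD, n = 3), Zfand2a, a stress-induced protein that binds the proteasome (286 ± 13.5 to 628 ± 13.8 CPM), Cop1, a ligase that degrades the transcription factor JUN (187 ± 8.74 to 381 ± 19.3 CPM), and Znrf1, a membrane-bound RING ligase (54.8 ± 7.96 to 110.5 ± 8.94 CPM). The lowest were those of Klhl6, an adaptor of cullin-3 ligases known from B cells (20.9 ± 0.847 to 8.64 ± 0.856 CPM), Otulinl, a relative of the deubiquitinase OTULIN without known activity (58.4 ± 2.58 to 33.7 ± 1.51 CPM), Ubac1, a partner of the KPC ligase (42.8 ± 3.67 to 26.5 ± 2.43 CPM), and Brca1, the RING ligase of DNA repair (17.2 ± 0.903 to 10.7 ± 1.57 CPM). Their log2 fold changes were 1.15, 1.14, 1.03 and 1.01 for the genes that were higher and −1.27, −0.79, −0.69 and −0.68 for those that were lower, in the same order.

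Calls were recomputed under 14 alternatives, 9 of which left out a library. All of them reuse the libraries behind the choice of the members. The share of all called genes that held in every alternative is not given here, so the counts are no trait of the members. Of the 22 members called against the vehicle control, 14 were called in every alternative: Usp53, Trim35, Rnf144b, Rnf19b, Peli1, Fbxl5, Usp32 and Trim26, which were higher, and Ube2ql1, Herc3, Trim14, Rnf166, Rnf168 and Usp46, which were lower. Of the 21 called against α-GalCer, 14 were called in every alternative, with Otud3 in the place of Rnf168. The call of Usp1 against α-GalCer held in 5 of 14 alternatives and was lost with RLE, DESeq2 and the replicate block and on leaving out vehicle replicate 1, TL replicate 1, 2 or 3 or α-GalCer replicate 2 or 3. Single libraries also ended smaller calls against the vehicle control: that of Otud3 without TL replicate 1, those of Rnf167 and Ube2z without TL replicate 3, that of Rnf2 without TL replicate 2, and that of Rnf6 without vehicle replicate 1 or TL replicate 1 or 2. Against α-GalCer, Rnf168 and Trim37 lost the call without TL replicate 1 or 3 or α-GalCer replicate 1 or 2, and Rnf2 without TL replicate 2. There Fbxw11 lost it without TL replicate 1, 2 or 3 or α-GalCer replicate 1 or 3, Rnf6 without TL replicate 1 or 2 or α-GalCer replicate 2 or 3, and Ube2z without TL replicate 2 or 3 or α-GalCer replicate 2 or 3. Conversely, DESeq2 called Marchf7 and Ube2s in both comparisons.

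**Figure D4:**
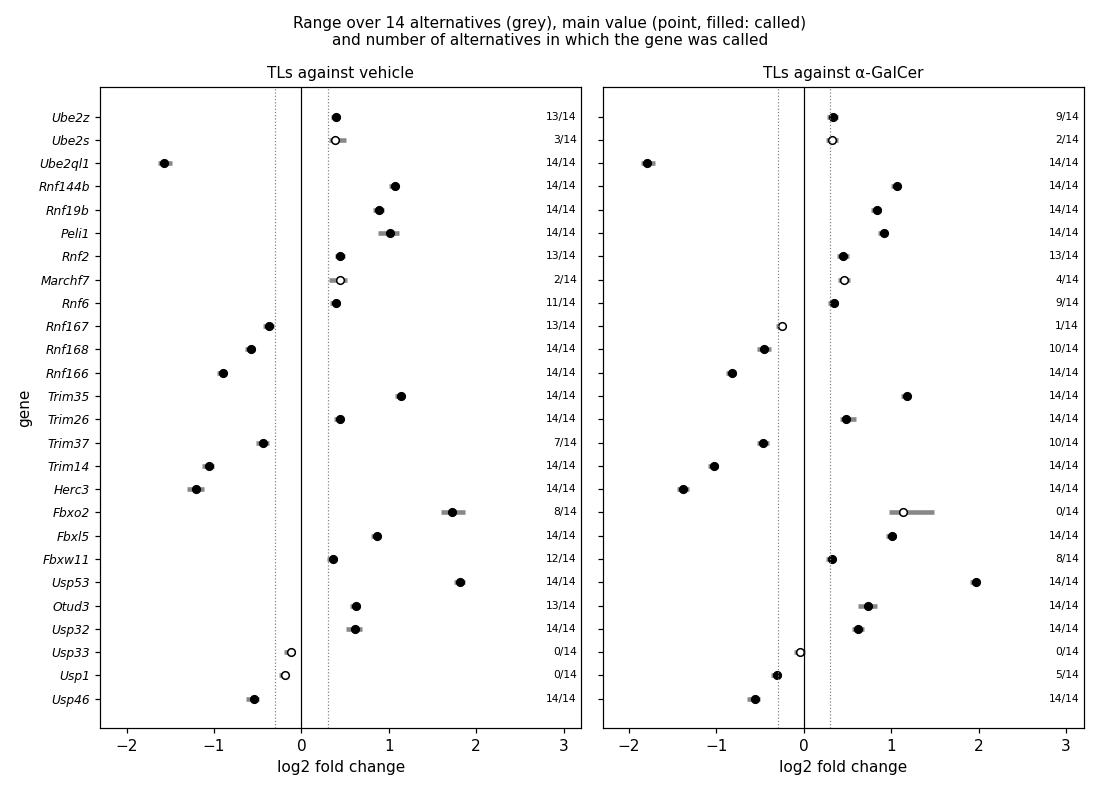
Range of the log2 fold change over the 14 alternatives (grey) with the main value (point, filled where called) for each tested gene, against the vehicle control (left) and α-GalCer (right), and at the right of each panel the number of alternatives in which the gene was called. Genes with large changes, such as Usp53 and Ube2ql1, were called in 14 of 14, whereas Trim37 was called in 7 and Fbxo2 in 8 against the vehicle control.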

How the data were processed

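The deposited table holds the raw counts the authors obtained for each Ensembl gene in 9 libraries of rat BMDCs. Per the labels and the study's methods, poly-T selected mRNA was sequenced in pairs, and reads were cleaned with fastp, mapped with HISAT2 to Rnor_6.0 and counted with featureCounts. Versions, annotation release, strand and multi-mapping settings are not given in the sources used here, so reads shared with close copies of a gene are uncertain. The study's EDASeq correction and NOISeqBIO test were not repeated.

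Genes with low counts were removed by filterByExpr in edgeR 4.0.16 (R 4.3.3), libraries were scaled by TMM, and the quasi-likelihood F-test was run on all 9 libraries with the group as the only term. p-values were adjusted after Benjamini and Hochberg over all 12602 genes. Standard errors were derived from F, as the size of the log2 fold change over its square root. The study describes its RNAseq data as 3 independent assays. The sources used here do not say whether these were separate rats or cultures, so p-values measure the spread between these assays. The fit was tested on simulated data.

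Symbols came from the shortened copy of the study's table of genes called against the vehicle control. That table's fold changes and p-values were not used. The wider family could not be named, since the reference table pairs no Ensembl IDs with symbols. All 27 members are named. Of the pathway list, the 4 highest and 4 lowest called genes are named, and of the members between α-GalCer and the vehicle control those with an unadjusted p under 0.05; Fbxo2, Rnf167, Usp1, Ube2ql1 and Usp53 there, and Klhl3 of the pathway list, were named after their values were seen. The members, lists and tests were chosen with earlier results of these data known. Protein features could not be computed. Promoter windows came from RefSeq (GRCr8). As alternatives, size factors were replaced by RLE or upper quartile values, edgeR by DESeq2 1.42.0, and the filter by none, followed by each library left out and the replicate number as a block.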

Additional observations from a re-analysis of the deposited data

How the results depend on the processing

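The direction of a member's change with TLs held in all 14 alternatives, with 1 exception: Usp33 against α-GalCer, never called, lay between −0.10 and 0.013 with a library left out, with 0.013 without α-GalCer replicate 2. Of the recomputed log2 fold changes of TLs against the vehicle control, 337 kept their call or lack of one, 22 lost it and 5 gained it; against α-GalCer 322, 34 and 7 did. Counts of members called stayed within 1.5 times the main ones, except that members lower against α-GalCer numbered between 5 and 8 with a library left out, with 5 without TL replicate 1, TL replicate 3 or α-GalCer replicate 2. Of the other pathway genes, between 11 and 18 were higher against α-GalCer with a library left out, with 11 without α-GalCer replicate 3. Between α-GalCer and the vehicle control, DESeq2 called 1 gene higher and 1 lower, as did edgeR with no filter on low counts, and between 0 and 1 gene was lower with a library left out, the 1 without vehicle replicate 2. Same-numbered libraries did not deviate together (correlations of deviations from −0.062 to 0.125, over 0.1 in 1 of 9 pairs). The number was therefore not used as a pairing in the main fit, although groups of 3 libraries cannot exclude one. With the replicate block, 13 members were called higher and 7 lower against the vehicle control, and 13 and 7 against α-GalCer. Over all genes the block gave 1168 higher and 1088 lower against the vehicle control, and 1169 and 1163 against α-GalCer. The members' calls lost were those of Fbxo2 and Trim37 against the vehicle control, and of Usp1 against α-GalCer. Upper quartile normalization moved the median of all genes from −0.021 to −0.088 against the vehicle control. It ended the call of Fbxw11 against both groups and those of Rnf6 and Ube2z against α-GalCer, and added that of Rnf167 against α-GalCer. Depth limits Fbxo2 and Fbxo36, which had at most 20 counts in a library. Neither the symbol family nor the pathway list could be completed, and alternatives on the whole family were not run.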

Other observations

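Vehicle replicate 2 stood apart from the 5 other libraries without TLs for many of these genes. It was the lowest of the 6 libraries for 14 of the 26 members tested and the highest for 4, so that it was at an end for 69.2% of the members, against 53.5% of all genes tested. On the second principal component, which held 9.72% of the variance, it scored −32.6, while the other vehicle libraries scored 14.9 and 15.6. The members for which it was the lowest include Peli1, Herc3, Marchf7, Usp32 and Fbxw11. Without it 13 members were called higher and 8 lower with TLs than with the vehicle control, in place of 14 and 8. Over all genes the calls were then 1345 higher and 1361 lower, in place of 1231 and 1219. The cause of its position was not tested.

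The spread between replicates is given as a description, since a call by the study favours genes with a small spread. The median coefficient of variation within a group was 6.33% over the members tested and 8.21% over all genes tested, at a median average log2 CPM of 5.77 and 4.71.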
